A study of Mus musculus with 3 samples.

Results

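The blastocoel genes described here are 9 genes of cavity formation in the mouse embryo: Atp1b1 and Atp1b3 (sodium pump), Aqp3 and Aqp8 (water channels), Cldn4, Cldn6, Tjp1 and Ocln (tight junctions) and Cdh1 (cell adhesion). Every array probe whose accession maps to one of these symbols was taken, which gave 12 of the 56591 probes used and 9 of the 23458 genes they name. The probes were 3 for Atp1b3, 2 for Tjp1 and 1 for each of the other 7 genes. All 12 were above the array background in all 3 conditions, as were 28788 of the 56591 probes.

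The study asked how maternal age and CXCL5-CXCR2 signaling bear on gene expression in blastocysts of ICR mice. Zygotes of superovulated, mated females were cultured for 96 h in KSOM medium, and expanded blastocysts were lysed in pools of 30, with 1 pool and 1 Agilent Cy3 array per condition. Females aged 3 to 6 weeks gave the young blastocysts, and females aged 43 to 53 weeks gave both the aging and the suppressed aging blastocysts. For the suppressed aging embryos alone, the medium held an antibody that neutralizes CXCL5 (10 μg/ml) together with a selective antagonist of CXCR2 (10 nM), so the antibody and the antagonist cannot be told apart on these arrays, and no array held young embryos cultured with them. Culture in vitro and superovulation were common to all 3 conditions. There were no replicates, so no test between conditions could be made and no P-value is given.

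The cavity of the blastocyst forms when the trophectoderm, the outer epithelium of the embryo, moves sodium across its basolateral membrane with the Na,K-ATPase and water follows through aquaporins. Tight junctions seal the epithelium so that the fluid stays inside, and E-cadherin holds the cells together before and during this process. The β subunits of the pump are needed for its assembly and its delivery to the membrane, claudins and occludin are membrane proteins of the tight junction, and ZO-1, the product of Tjp1, is the scaffold beneath them.

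The promoter sequences of 3 genes are printed because of the values below: in suppressed aging against aging blastocysts, Tjp1 and Ocln had the largest differences above 0 of the 9 genes, and Aqp8 the largest below 0. Each is the 250 bases before the start of a transcript, 5′ to 3′ on the strand of the gene, from RefSeq on the GRCm38.p6 build. Tjp1 lies at chr7:65371245-65371494 on the minus strand, Ocln at chr13:100552499-100552748 on the minus strand and Aqp8 at chr7:123462044-123462293 on the plus strand. Capitals mark the letters of a searched motif.
Tjp1: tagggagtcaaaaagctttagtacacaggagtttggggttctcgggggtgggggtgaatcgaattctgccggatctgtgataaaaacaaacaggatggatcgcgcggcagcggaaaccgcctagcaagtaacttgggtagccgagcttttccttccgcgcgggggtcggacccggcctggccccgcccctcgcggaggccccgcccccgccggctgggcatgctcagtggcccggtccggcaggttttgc
Ocln: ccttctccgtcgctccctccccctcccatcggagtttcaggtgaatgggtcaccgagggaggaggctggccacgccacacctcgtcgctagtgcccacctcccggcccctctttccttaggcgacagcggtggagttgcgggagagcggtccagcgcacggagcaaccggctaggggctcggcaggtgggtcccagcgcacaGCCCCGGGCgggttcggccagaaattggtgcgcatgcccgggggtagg
Aqp8: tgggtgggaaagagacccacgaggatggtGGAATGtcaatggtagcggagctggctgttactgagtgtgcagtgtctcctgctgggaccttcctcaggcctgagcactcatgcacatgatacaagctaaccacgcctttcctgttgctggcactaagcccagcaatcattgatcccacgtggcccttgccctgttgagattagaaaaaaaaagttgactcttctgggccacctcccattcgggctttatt
The capitals are a match to the AP-2 motif in the Ocln sequence and a match to the TEAD motif, on the opposite strand, in the Aqp8 sequence, and the Tjp1 sequence held no match. Ocln has another promoter sequence, not printed, which held no match.

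The table of RefSeq promoters held 10 sequences for 8 of the 9 genes, with 2 each for Atp1b3 and Ocln. Motifs of the trophectoderm regulators in the lists below were searched on both strands. The AP-2 motif (GCCNNNGGC, for Tfap2c and Tfap2a) was present in 1 of the 10 sequences, where 13.7% of all 32851 promoters held it. The TEAD motif (CATTCC, for Tead4) was present in 1 of 10, where 12.6% of all promoters held it. The GATA motif (AGATAA, for Gata3) and the GRHL motif (AACCNGTT, for Grhl1 and Grhl2) were in none of the 10, where 9.99% and 1.79% of all promoters held them. The motifs do not overlap one another in the sequences printed. The GC content of the 10 sequences was between 52.4% and 76.8%, and the number of CpG dinucleotides between 5 and 35, where the medians of all promoters were 52.4% and 6. These matches are descriptions of letters and were not tied to the levels.

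Levels below are log2 intensities minus the 75th percentile of the same array, at which the intensity was 145 (young), 155 (aging) and 122 (suppressed aging). A difference is the level in one condition minus the level in another. The error given is the one that the scanner software assigns to a spot, 0.14 to 0.15 for a level and 0.20 to 0.21 for a difference. It stands for the reading of the spot (1 spot per probe and array) and leaves out the spread between pools. It was nearly the same for all 12 probes, so 2 errors act as a nearly fixed cut on size. On the same arrays, probes with replicate spots had a smaller median SD, 0.05 (log2). Differences of more than 2 such errors are called larger than the reading error and smaller ones within it, and a gene is called over 2-fold apart when its difference is at least 1 in size. A level shows how bright 1 probe is and was compared between arrays only, since different probes bind with different strength.

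Of the pump genes, Atp1b3 was lower on the aging array on its brightest probe, and Atp1b1 did not differ beyond the reading error. Atp1b1, which encodes the β1 subunit, had an intensity of 1105 (young), 1064 (aging) and 1056 (suppressed aging), or levels of 2.93, 2.78 and 3.11. Its 3 levels lay close together, and none of the differences (-0.15 for aging minus young, 0.33 for suppressed aging minus aging and 0.18 for suppressed aging minus young) was larger than the reading error. Atp1b3, which encodes the β3 subunit, had an intensity of 5190, 3813 and 4527 on its brightest probe, or levels of 5.16, 4.62 and 5.21. The aging array was lowest, by 0.54 against young and by 0.58 against suppressed aging, both larger than the reading error, while the young and suppressed aging arrays differed by 0.05. The second Atp1b3 probe (A_52_P572950) read -1.12, -1.42 and -0.77 and was likewise lowest on the aging array, by 0.30 against young, within the reading error, and by 0.65 against suppressed aging. The third (A_55_P2722799) read 0.85, 0.90 and 1.26, with the young and aging arrays within the reading error of each other.

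The aquaporins lay on opposite sides. Aqp3, a channel for water and glycerol, had an intensity of 11556 (young), 7501 (aging) and 8486 (suppressed aging), or levels of 6.32, 5.60 and 6.12. It was lower on the aging array than on the young array by 0.72 (1.64-fold), and higher on the suppressed aging array than on the aging array by 0.51. The young and suppressed aging levels differed by 0.20, within the reading error. Aqp8, a channel for water and ammonia, had an intensity of 466, 903 and 380, or levels of 1.69, 2.55 and 1.63. Here the aging array was the high one, by 0.86 against young (1.82-fold) and by 0.91 against suppressed aging (1.88-fold), and the young and suppressed aging arrays differed by 0.05.

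**Figure D1:**
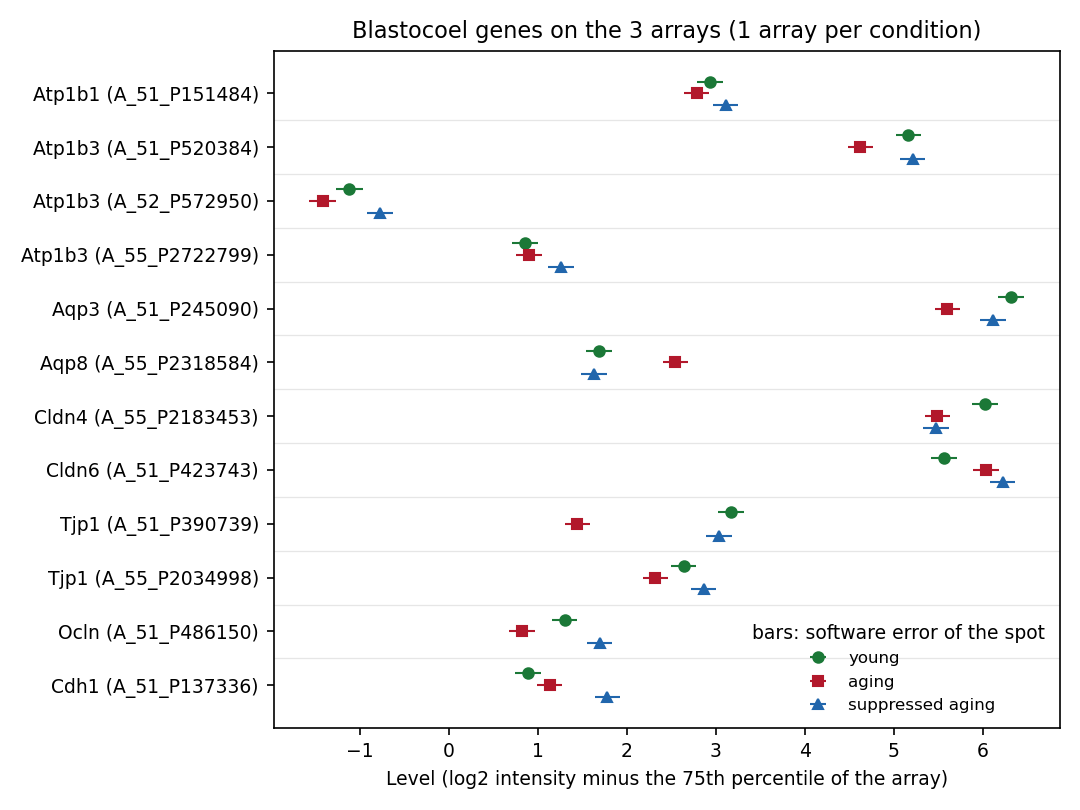
Level of each of the 12 probes (horizontal axis, log2 intensity minus the 75th percentile of the array) on the young (green circles), aging (red squares) and suppressed aging (blue triangles) arrays, 1 array per condition, with bars for the software error of the spot. The brighter Tjp1 probe has the widest separation, with the aging array at 1.44 and the other arrays at 3.17 and 3.04, and Aqp8 has the aging array on the other side, at 2.55.

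The claudins differed from each other in direction. Cldn4 had an intensity of 9427 (young), 6940 (aging) and 5437 (suppressed aging), or levels of 6.02, 5.49 and 5.47. Both arrays of aging females were below the young array, by 0.53 and 0.55, and they differed from each other by 0.01. Cldn6, which marks epithelia of the embryo, had an intensity of 6851, 10133 and 9121, or levels of 5.56, 6.04 and 6.22. It was higher on both arrays of aging females than on the young array, by 0.47 and 0.66, and the aging and suppressed aging arrays differed by 0.19, within the reading error.

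Ocln, which encodes occludin, had an intensity of 357 (young), 273 (aging) and 396 (suppressed aging), or levels of 1.30, 0.82 and 1.69. The aging array was lowest, by 0.48 against young and by 0.87 against suppressed aging (1.83-fold). The suppressed aging level was above the young level by 0.39, within the reading error.

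Tjp1 was the gene with the largest difference of the 9. Its probe with the highest mean intensity (A_51_P390739) read 1303 (young), 421 (aging) and 1004 (suppressed aging), or levels of 3.17, 1.44 and 3.04. The aging array was 3.30-fold below the young array (a difference of -1.72) and 3.02-fold below the suppressed aging array (a difference of 1.59 for suppressed aging minus aging). Of all probes compared, 7.32% were as far apart between aging and young and 7.62% between suppressed aging and aging. Among the 17694 probes above background on all arrays with a mean level in the range of the 12 probes, these shares were 3.06% and 3.07%.

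The other Tjp1 probe (A_55_P2034998) read 902, 772 and 889, or levels of 2.64, 2.32 and 2.86. It was also lowest on the aging array, but by 0.32 against young, within the reading error, and by 0.54 against suppressed aging. The probes of Tjp1 therefore gave the same direction and a different size, 1.41 apart for aging minus young and 1.05 apart for suppressed aging minus aging. Among the 3813 genes with 2 probes compared between aging and young, the median gap between probes was 0.55, and 15.0% had a gap as large. The over 2-fold difference of Tjp1 rests on 1 probe: where the brightest probe is chosen by its mean log2 level in place of its mean intensity, the other probe stands for the gene and the difference is under 2-fold in each comparison. For Atp1b3 the 3 probes lay within 0.58 of each other for aging minus young, where the median gap of the 874 genes with 3 probes was 0.98.

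**Figure D2:**
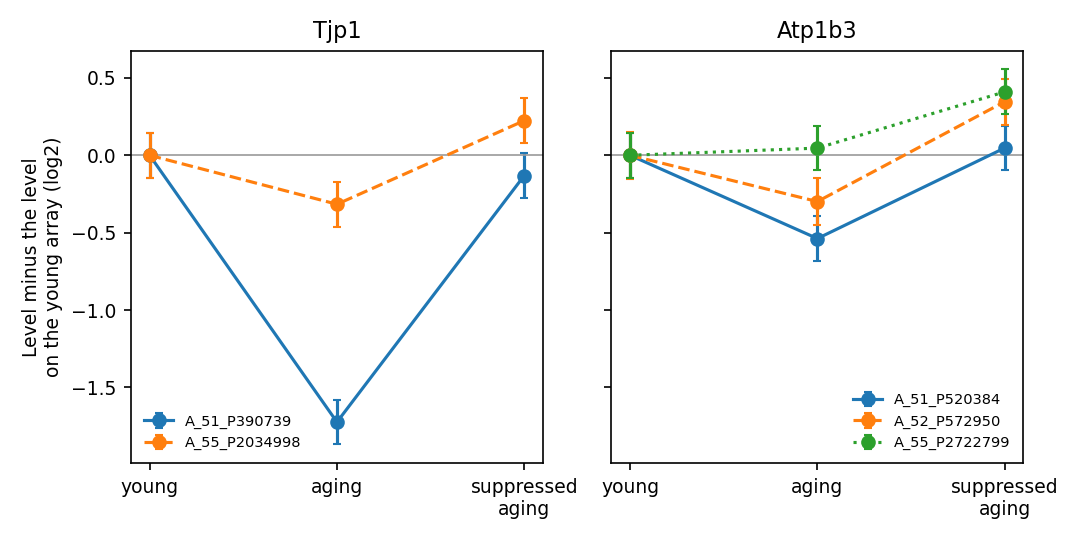
Level minus the level on the young array (vertical axis, log2) for the 2 probes of Tjp1 and the 3 probes of Atp1b3 on the young, aging and suppressed aging arrays, with bars for the software error of the level. The Tjp1 probes stand at -1.72 and -0.32 on the aging array, and the Atp1b3 probes at -0.54, -0.30 and 0.05, so the size on the aging array differs between probes of 1 gene.

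Cdh1, which encodes E-cadherin, had an intensity of 269 (young), 339 (aging) and 420 (suppressed aging), or levels of 0.89, 1.13 and 1.78. The young and aging levels differed by 0.24, within the reading error. The suppressed aging array was highest, by 0.65 over aging and by 0.89 over young (1.85-fold).

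Taking the brightest probe of each gene, 3 of the 9 genes were higher and 6 lower in aging than in young blastocysts, with a median difference of -0.48, where the median of the 16166 genes compared was 0.03. Only Tjp1 was over 2-fold apart, which is 1 of 9 genes against 19.4% of all genes compared. With normexp background correction, Tjp1 was still the 1 gene over 2-fold apart. The share over 2-fold with normexp is given for all probes, not for genes, and was 4.52% in place of 21.1%. In 7 of the 9 the difference was larger than the reading error. Of all probes compared, 49.2% were at least as far apart as the smallest of these, Cldn6 at 0.47. The median size of the difference, without its sign, was 0.53 for the 9 genes and 0.44 for all genes. With the mean over the probes of each gene, the median difference was -0.26 in place of -0.48.

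In suppressed aging against aging blastocysts, 7 of the 9 genes were higher and 2 lower (Aqp8 and Cldn4), with a median difference of 0.51, where the median of the 15873 genes compared was -0.003. Tjp1 alone was over 2-fold apart, against 17.6% of all genes, and with the authors' processed values Aqp8, whose difference was -0.91 here, passed this threshold as well. In 6 of the 9 the difference was larger than the reading error. Of all probes compared, 42.7% were at least as far apart as the smallest of these, Aqp3 at 0.51. The median size was 0.58 for the 9 genes and 0.41 for all genes. This comparison shares the aging array with the one before, so a low reading on that array gives a lower value in one and a higher value in the other.

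In suppressed aging against young blastocysts, 5 of the 9 genes were higher and 4 lower, with a median difference of 0.05, where the median of the 15938 genes compared was 0.04. None of the 9 was over 2-fold apart, against 16.7% of all genes. The difference was larger than the reading error in 3 genes, Cldn4 (-0.55), Cldn6 (0.66) and Cdh1 (0.89). Of all probes compared, 38.4% were at least as far apart as the smallest of these, Cldn4. The median size was 0.20 for the 9 genes and 0.39 for all genes.

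**Figure D3:**
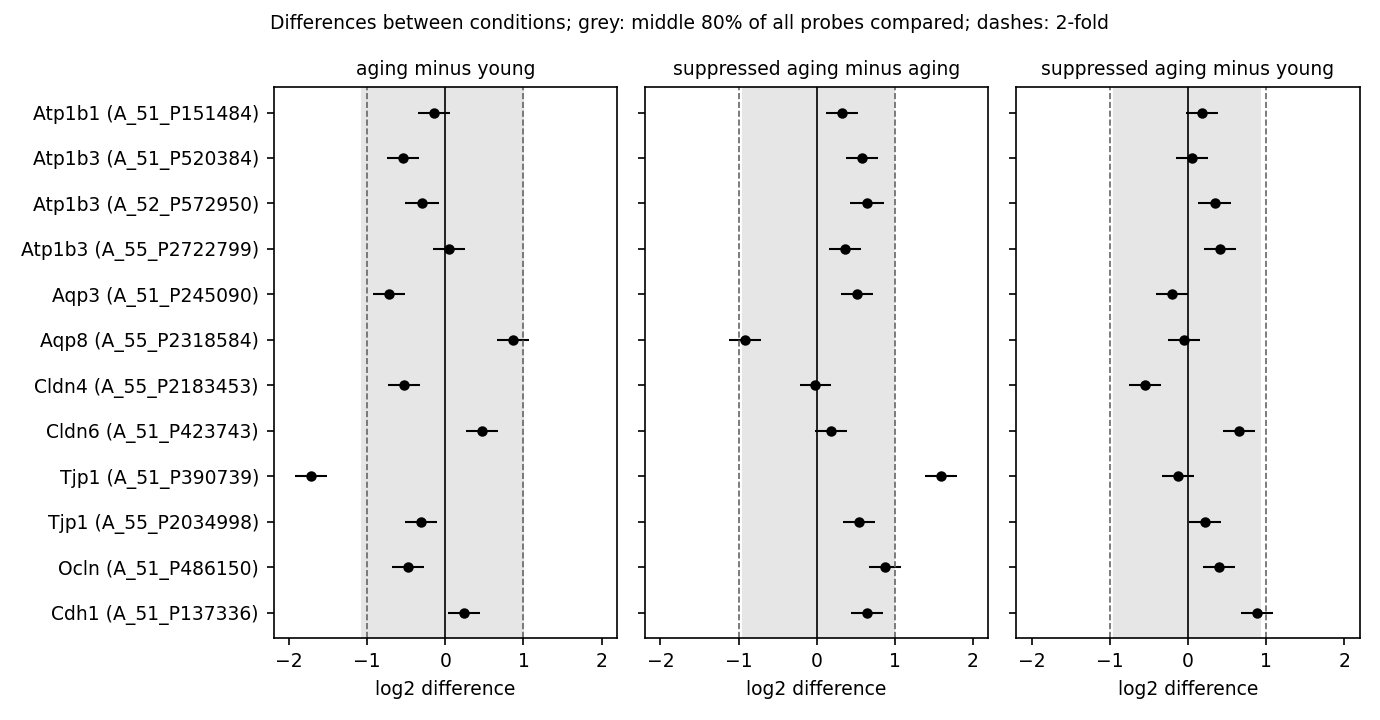
Log2 difference of each of the 12 probes in the 3 comparisons (horizontal axis, with bars for the software error of the difference), against the middle 80% of all probes compared (grey) and the 2-fold lines (dashes). The brighter Tjp1 probe lies outside the grey band at -1.72 and 1.59, and the other 11 probes lie inside it in every comparison. Against the narrower middle 80% of probes above background on all arrays in the level range of the 12 probes (-0.78 to 0.77, -0.69 to 0.74 and -0.68 to 0.72), Aqp8 (0.86 and -0.91), Ocln (0.87) and Cdh1 (0.89) also lie outside.

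All 3 arrays held the markers of the labelled tissue. The 7 trophectoderm markers were above background on every array, as were the 7 markers of the inner cell mass, the inner cells that give rise to the embryo proper. The summed signal of the trophectoderm markers had log2 values of 8.95 (young), 8.55 (aging) and 8.79 (suppressed aging). That of the inner cell mass markers was 10.00, 10.26 and 10.15. The inner cell mass sum came almost entirely from Nanog (9.88, 10.14 and 10.03). The largest part of the trophectoderm sum came from Krt18 (8.05, 7.52 and 7.73). Single markers differed in direction: 5 of 7 inner cell mass markers were higher and 2 lower in aging than in young blastocysts, and 2 of 7 trophectoderm markers were higher and 5 lower. The trophectoderm sum was lowest and the inner cell mass sum highest on the aging array. By brightest probe, Atp1b1 (within the reading error), Atp1b3, Aqp3, Tjp1 and Ocln were also lowest there. Of the other members, Aqp8 was highest on the aging array, and Cldn6 and Cdh1 were lowest on the young array. For Cdh1 the young and aging levels were within the reading error of each other. Cldn4 was low on both arrays of aging females, with suppressed aging minus aging at -0.01, within the reading error. The part of cell type shares in these differences was not tested, and in pooled embryos fewer cells of a type and less RNA per cell cannot be told apart.

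Markers of other cells that the pools could hold were mostly low or not above background, apart from Foxl2. Of 9 cumulus and granulosa cell markers, 4 were above background on each array, and their summed level (8.66, 8.55 and 8.78) came almost entirely from Foxl2 (8.66, 8.54 and 8.77), while Has2, Ptx3, Tnfaip6, Inhba and Fshr were not above background on any array. Of 5 oviduct markers, 1 was above background on the young array and 2 on each of the others, with summed levels of -1.85, -1.52 and -1.65, and Foxj1 and Pax8 were not above background on any array. Of 5 blood markers, 2, 3 and 1 were above background, with summed levels of -0.03, 0.83 and -0.87, and Ptprc was not above background on any array. Of 9 markers of eggs, 5, 6 and 4 were above background, with summed levels of 0.59, 1.55 and 0.46, and Zp1, Oosp1 and Mos were not above background on any array. The blood and egg sums were highest on the aging array, and their part in the differences of the 9 genes was not tested.

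The rest of the pump was set beside the β subunits above. Of 12 genes of the pump and its FXYD regulators that could be compared between aging and young, 5 were higher and 7 lower, 2 of them over 2-fold, and the median was -0.12. Those 2 were Fxyd1 (a level of -2.38 on the young array and not above background on the aging array, a difference of at most -1.94) and Fxyd6 (4.16 and 2.97). Both encode small membrane proteins of the family that adjusts pump activity. Between suppressed aging and aging, 7 of 11 lay higher and 4 lower (median 0.04), and Fxyd4 had the largest difference measured on both arrays, 2.15, from levels of 1.86 to 4.01. Atp1b2, the β2 subunit, was at -1.92 on the aging array and not above background on the suppressed aging array, a difference of at most -2.01 on its brightest probe and of at most -0.41 on its second.

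Sodium and chloride entry, on the apical side, was covered by 9 listed genes, of which 5 were above background on any array. Slc9a3, a sodium-hydrogen exchanger, was not above background on any array. Of the 4 that could be compared between aging and young, 1 was higher and 3 lower (median -0.18), and all 5 compared between suppressed aging and aging were higher, with a median of 0.27. None was over 2-fold apart in any of the 3 comparisons.

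Among the other aquaporins, 8 of 10 were above background on any array, and 2 were higher and 6 lower in aging than in young blastocysts, 1 of them over 2-fold, with a median of -0.31. Between suppressed aging and aging, 5 lay higher and 3 lower (median 0.22). Mip, the lens aquaporin, read -1.99, -3.12 and -3.75 on the 3 arrays, and was over 2-fold lower in aging and in suppressed aging than in young blastocysts. Aqp11, an intracellular channel, read -0.04, 0.03 and -1.18 on its brightest probe, a difference of -1.20 between suppressed aging and aging that its second probe did not show (0.14).

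Among the other claudins, 11 of the 20 on the array were above background on any array. Of those compared, 6 were higher and 4 lower in aging than in young blastocysts (median 0.21), and 3 were higher and 8 lower in suppressed aging than in aging blastocysts (median -0.21). Cldn7 read 5.24, 4.93 and 5.11, with differences of -0.31 for aging minus young, 0.18 for suppressed aging minus aging and -0.13 for suppressed aging minus young. Cldn18 was the 1 gene of this list over 2-fold apart for aging minus young (1.08) and for suppressed aging minus aging (-1.28), with levels of -2.49, -1.41 and -2.69.

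The 23 tight junction scaffold and polarity genes besides Tjp1 were divided, with 12 higher and 11 lower in aging than in young blastocysts (median 0.09) and 8 higher and 15 lower in suppressed aging than in aging blastocysts (median -0.16). Cgn, which encodes cingulin, a partner of ZO-1 at the junction, read 3.81, 3.66 and 3.65 on its brightest probe. Its second probe read 2.10, 0.84 and 2.07, differences of -1.26 for aging minus young and 1.23 for suppressed aging minus aging. The brightest probe of Cgn did not show these over 2-fold differences, at -0.15 and -0.01.

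F11r, which encodes the junctional adhesion molecule JAM-A, read 2.60 (young), 3.48 (aging) and 3.91 (suppressed aging), over 2-fold apart between suppressed aging and young at 1.32. Marveld3, a relative of occludin, read 0.66, 1.18 and -1.70 on its brightest probe, a difference of -2.87 between suppressed aging and aging, and -2.22, -1.12 and -1.81 on its second, a difference of -0.69. Marveld2, which encodes tricellulin, read 1.94, 0.47 and 1.37 on its brightest probe, a difference of -1.47 for aging minus young, and its second probe differed by -0.63. For suppressed aging minus aging its probes differed in direction, at 0.90 and -0.48. Pard6b, a polarity protein of the apical complex, read 2.76, 1.87 and 3.33, a difference of 1.45 between suppressed aging and aging. Magi1, a junction scaffold, read -1.26, 0.63 and -0.12 on its brightest probe, 1.89 higher on the aging than on the young array, while its second probe was 0.74 lower there.

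Of the 15 adherens junction and desmosome genes, 6 were higher and 9 lower in aging than in young blastocysts (median -0.11), and 8 were higher and 7 lower in suppressed aging than in aging blastocysts (median 0.12). The catenins that link E-cadherin to actin were close on all arrays. Ctnna1 read 5.85, 5.61 and 5.99, and Ctnnb1 read 5.62, 5.51 and 5.84 on its brightest probe, with differences between suppressed aging and aging of 0.38 and 0.33. The over 2-fold differences lay in desmosome genes and in Afdn, which encodes afadin, a link of nectins to actin. Dsc3, a desmosomal cadherin, read -0.31, -2.41 and -1.39 on its brightest probe, while its other probes were not above background on any array. Dsc2 read -3.85 on the young array, was not above background on the aging array and read -2.72 on the suppressed aging array, at least 1.45 above aging. Pkp3, a desmosomal plaque protein, read -0.07, -0.51 and -1.86. Afdn read -0.21, 1.32 and 0.28 on its brightest probe, 1.52 higher in aging than in young blastocysts, where its second probe was 0.20 higher.

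The list of upstream trophectoderm regulators, which shares Cdx2, Gata3, Tfap2c and Eomes with the markers above, was mostly lower on the aging array: 3 of 13 were higher and 10 lower in aging than in young blastocysts, 2 of them over 2-fold, with a median of -0.17. Between suppressed aging and aging, 9 lay higher and 4 lower (median 0.29). Of the 13, 2 were over 2-fold apart, both higher, against 17.6% of all genes compared in either direction. Grhl1, which encodes a grainyhead factor of epithelia, had the largest difference of the list, with levels of 1.74, 0.64 and 3.78 and a difference of 3.14 between suppressed aging and aging. Tfap2c, which encodes AP-2γ, a regulator of junction and fluid transport genes in the trophectoderm, read 5.74, 4.58 and 5.07 on its brightest probe, a difference of -1.16 for aging minus young, whereas its second probe read 0.28, 0.36 and 0.57. Wwtr1, which encodes the Hippo coactivator TAZ, read -0.44, -1.04 and -0.00, a difference of 1.03 between suppressed aging and aging. The 15 housekeeping genes had a median difference of 0.03 in each of the 3 comparisons.

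**Figure D4:**
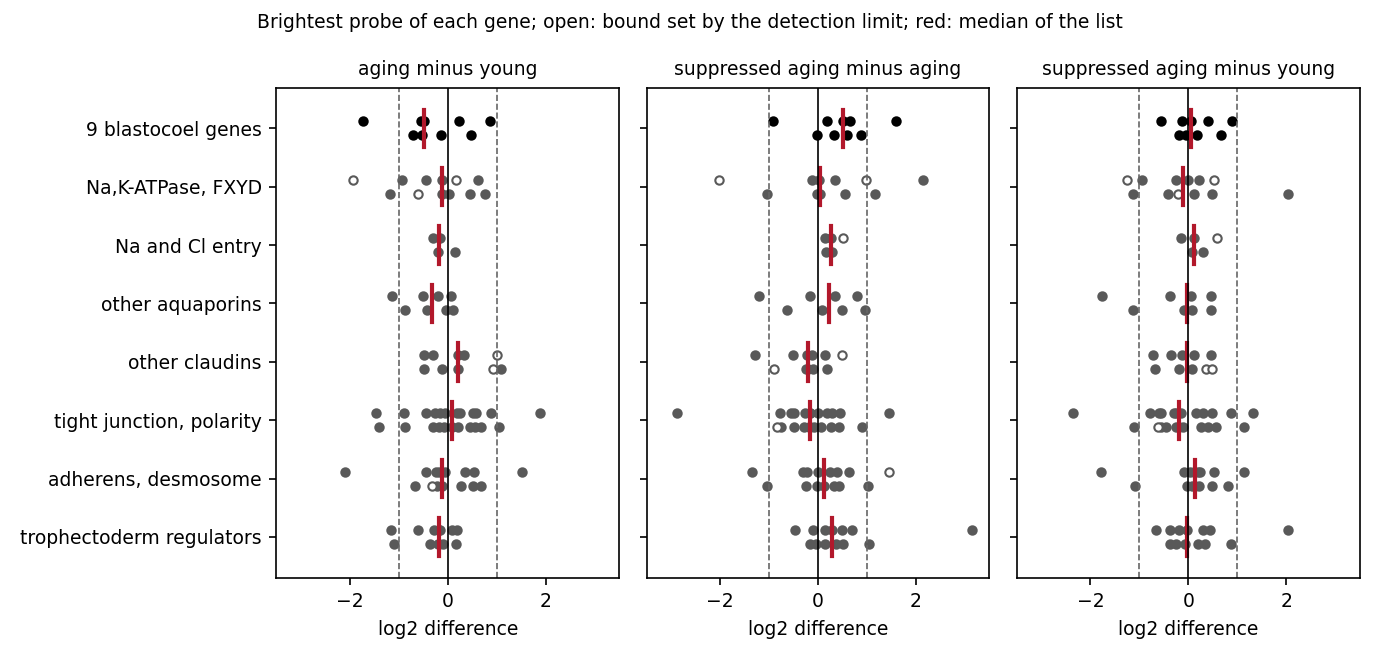
Log2 difference of the brightest probe of each gene (horizontal axis) in the 3 comparisons, for the 9 blastocoel genes (black) and 7 lists of related genes (grey), with open points for bounds set by the detection limit, red bars for the median of the list and dashes at 2-fold. The 9 genes have medians of -0.48, 0.51 and 0.05, and the medians of the 7 lists lie between -0.31 and 0.29. The median of -0.48 depends on the choice of probe. It is -0.26 with the mean over the probes of each gene and -0.32 with the brightest probe by mean log2 level.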

How the data were processed

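Each condition had 1 array (SurePrint G3 Mouse GE type) of 1 pool. The methods of the study describe amplification by a single-primer PCR and labelled cDNA, whereas the sample labels name a kit for cRNA, and this difference could not be settled from the files. Spot intensity, linear, was deposited as Agilent Feature Extraction 12.0.3.1 gave it: the background was subtracted and spatial trends removed within an array, and arrays were not normalized to each other. Their table of processed values holds the same deposited intensity times 1 constant per array (3.46, 3.34 and 3.96), used as an alternative. How this constant was set is not given in the sources used here.

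Control spots and 85 to 118 spots per array marked as outliers were left out, and no spot was saturated. Between 56.4% and 58.7% of the 56591 probes used were above background. All arrays lay on 1 slide and were scanned on 1 day, and probes with replicate spots had a median SD of 0.05 (log2) within each array. Intensities were converted to log2, averaged over the spots of a probe, and the 75th percentile of the array was subtracted. A probe above background on 1 of 2 arrays gave a bound at the detection limit (-4.20, -4.32 and -3.93), and a probe above background on neither gave no difference. A gene was represented by its probe with the highest mean intensity.

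The RefSeq table (GRCm38.p6) served for gene names, since the array grid names mm9. It named 33759 of the 56591 probes. Probe and protein sequences were not used here. The 9 genes, the lists and the tests were chosen with earlier results of these data known. From the lists, the named genes were 8 direct partners and up to 4 genes per list with the largest difference over 2-fold. Not all are described with every probe, and some of these genes are not reported here.

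Alternatives tried were another background correction (normexp of limma 3.58.1 in R 4.3.3, offset 50), quantile normalization, other centrings (the median of probes above background, the mean of 15 housekeeping genes), the authors' processed values, outlier spots kept, the mean over probes, only probes above background on both arrays, no filter, another detection call, a 5-fold threshold and, added after seeing the data, the brightest probe by mean log2 level. The calls were tested on simulated data. Python 3.11.15, NumPy 2.4.6, pandas 2.3.3 and Matplotlib 3.10.9 were used.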

Additional observations from a re-analysis of the deposited data

How the results depend on the processing

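No paired analysis was possible because the 3 arrays are single pools, and for the same reason no replicate could be left out. Of the 36 differences of the 12 probes, 35 had the same sign under every alternative that can be applied to a probe. The exception was Aqp8 between suppressed aging and young, -0.05, which was 0.08 with normexp background correction. Of 324 alternative values of single probes, 4 moved by more than the software error, all with normexp. Other filters and detection calls could not move these values, since all 12 probes were above background on every array. Other centrings, the authors' processed values and outlier spots kept shifted all 12 probes of a comparison by the same amount. Only normexp and quantile normalization moved single probes by different amounts. The brighter Tjp1 probe ranged from -1.73 to -1.62 for aging minus young and from 1.50 to 1.60 for suppressed aging minus aging.

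The median difference of the 9 genes between aging and young was -0.26 when the probes of a gene were averaged. It was -0.32 with the brightest probe by mean log2 level. With a 5-fold threshold, 0 of the 9 genes passed between aging and young, against 2.71% of all genes compared. Between suppressed aging and aging 0 passed, against 2.48% of all genes compared. At 2-fold, the same counts (0 and 0) were found with the brightest probe by mean log2 level. With the authors' processed values, 2 genes (Aqp8 and Tjp1) passed 2-fold between suppressed aging and aging. Between suppressed aging and young the count was 0 under every alternative run. The share of all probes over 2-fold was 21.1%, 19.0% and 18.1% in the 3 comparisons and 4.52%, 3.83% and 3.85% with normexp. The median of all probes shifted by over 0.1 only without a filter and only for suppressed aging minus aging, from 0.02 to 0.17. All 12 probes were above background on every array, and the spread between pools is not known.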
